A study of Mus musculus with 3 samples.

Results

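The 6 main milk protein genes were followed in dissociated mammary epithelium, chosen by their symbols from the 19050 gene symbols measured. They are Csn1s1, Csn1s2a and Csn2, which encode the calcium-sensitive alpha and beta caseins, Csn3, which encodes kappa-casein, and Wap and Lalba, which encode the whey proteins whey acidic protein and alpha-lactalbumin. All 6 were present in each count table. The cells came from number 4 mammary glands of female FVB/NJ mice, an inbred albino strain, aged 10 weeks. Per the labels, glands of 4 mice were pooled, digested with collagenase type IV and trypsin, and sorted as live epithelial cells, with SytoxBlue to mark dead ones and antibodies to Ter119, CD45, CD31, EpCAM and CD49f. No treatment, allele, pregnancy or oestrous stage is named, and the 3 libraries form 1 group. Each library carries the same text, and no source used here says whether the libraries came from separate pools of mice. The p-values below thus rest only on how far differences between classes varied over at most 3 libraries, a spread that may be technical. The fit estimates that spread over the classes together and draws it towards that of other genes. Where library is not a block in the fit, the p-values also take in the spread between libraries.

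Caseins are phosphorylated proteins that bind calcium phosphate and assemble into the micelles of milk, and kappa-casein coats and stabilises those micelles. Whey acidic protein is a main whey protein of mouse milk, and alpha-lactalbumin converts the galactosyltransferase B4galt1 into lactose synthase. In mammary epithelium these genes are known as targets of prolactin, which signals through its receptor, the kinase Jak2 and the transcription factors Stat5a and Stat5b, together with glucocorticoid hormone. The milk-secreting alveolar cells of pregnancy belong to the Elf5-expressing luminal lineage.

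On the GRCm38 assembly, which is mm10, the annotation GENCODE M21 places the caseins in a cluster on chromosome 5. Csn1s1 lies at chr5:87666208-87682578 on the plus strand and Csn2 at chr5:87692624-87699630 on the minus strand. Csn1s2a (chr5:87774567-87788797) and Csn3 (chr5:87925579-87932665) are both on the plus strand. Wap lies on the minus strand at chr11:6635482-6638637 and Lalba on the minus strand at chr15:98480400-98482721. All 6 are annotated as protein coding. The RefSeq promoter windows of the same assembly (GRCm38.p6), from 250 bases before to 50 bases after the start, were at hand for 5 of the 6 genes, with none for Csn3. The windows of the 3 calcium-sensitive caseins are shown because these genes varied together over cells in the results below, and that of Lalba stands beside them. Capitals mark a match to TTCNNNGAA, the core recognised by Stat5, and 250 bases are printed 5′ to 3′ on the gene's strand.
Csn1s1 (chr5:87665958-87666207, plus strand): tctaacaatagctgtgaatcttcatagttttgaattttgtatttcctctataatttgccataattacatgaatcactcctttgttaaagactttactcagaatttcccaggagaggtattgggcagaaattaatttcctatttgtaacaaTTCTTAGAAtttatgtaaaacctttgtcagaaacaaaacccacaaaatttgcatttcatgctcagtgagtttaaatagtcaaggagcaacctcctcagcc
Csn2 (chr5:87699426-87699675, minus strand): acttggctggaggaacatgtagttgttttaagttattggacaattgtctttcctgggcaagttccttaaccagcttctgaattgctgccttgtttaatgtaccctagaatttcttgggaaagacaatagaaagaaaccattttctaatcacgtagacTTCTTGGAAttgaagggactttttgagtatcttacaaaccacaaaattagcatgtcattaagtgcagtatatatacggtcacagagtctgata
Csn1s2a (chr5:87774229-87774478, plus strand): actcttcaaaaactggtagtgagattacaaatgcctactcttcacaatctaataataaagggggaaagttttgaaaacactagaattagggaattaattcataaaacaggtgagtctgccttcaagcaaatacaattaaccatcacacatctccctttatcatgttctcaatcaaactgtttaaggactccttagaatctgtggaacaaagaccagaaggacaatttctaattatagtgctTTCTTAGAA
Lalba (chr15:98482684-98482933, minus strand): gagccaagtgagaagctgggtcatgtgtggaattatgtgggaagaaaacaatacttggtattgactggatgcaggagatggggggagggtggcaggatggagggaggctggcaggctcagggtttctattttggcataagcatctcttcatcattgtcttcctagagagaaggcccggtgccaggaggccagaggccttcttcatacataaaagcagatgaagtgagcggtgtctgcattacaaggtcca
The match TTCTTAGAA began 100 bases before the RefSeq start of Csn1s1, and TTCTTGGAA began 93 bases before that of Csn2. In Csn1s2a the match TTCTTAGAA began at base 21 after the RefSeq start, which is 97 bases before the start that GENCODE gives. For Csn2 the GENCODE start, base 87699630, lies upstream of the match, which is then inside the gene. The windows of Wap and Lalba held no match to these letters. The RefSeq span of Lalba reaches base 98482934, so its printed stretch lies inside that span, before a start within it. The motif reads the same on both strands, and 8.30% of 32851 such windows in the RefSeq table held it, against 3 of the 5 windows here. TTGGC, the box of the nuclear factor 1 family, was found on either strand in 3 of the 5 windows (Csn2, Wap and Lalba) and in 46.7% of all windows. TGTTCT, a box of the glucocorticoid receptor, was found in 1 of the 5, that of Csn1s2a, and in 19.0% of all. These matches are letters in a window and show no binding.

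Droplet single-cell RNA-seq (10x Genomics 3′ v2 chemistry) counts each captured transcript once by a unique molecular identifier (UMI). Levels are given as CPM, UMIs scaled to a common total over all UMIs of the summed cells. Only transcript ends are counted, so the scale holds no term for gene length. The libraries held 6691, 9034 and 11120 barcodes and 18584156, 27220670 and 30984706 UMIs in all, and 6003, 8288 and 10061 cells were kept. Barcodes that also occurred in another library numbered 205, 222 and 274. Cells were classed by the largest of 3 UMI sums, Elf5, Kit and Aldh1a3 for luminal progenitor cells, Prlr, Areg, Pgr and Esr1 for hormone-responsive cells, and Krt5, Krt14 and Acta2 for basal cells. The largest sum had to reach 3 UMIs and 3 times each other sum. Luminal progenitor cells numbered 1454, 730 and 1479 in libraries 1, 2 and 3, hormone-responsive cells 394, 1028 and 1334, and basal cells 1658, 4525 and 4128. Their median depths were 3467.5 to 3720.5, 3224.5 to 3799 and 1701 to 2170 UMIs per cell in that order. Markers outside the rule followed the classes. In library 1 the luminal gene Ehf reached 410 CPM in luminal progenitor cells, 35.7 CPM in hormone-responsive cells and 16.6 CPM in basal cells, the luminal gene Cited1 stood at 1129 CPM in hormone-responsive cells, and the myoepithelial gene Tagln at 2604 CPM in basal cells. The remaining 2497, 2005 and 3120 cells met the rule for no class and enter no comparison.

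On average over libraries all 6 genes were highest in luminal progenitor cells, and each rose there against both other classes, by 3.91 to 5.10 on the log2 scale as fitted. Library 1 stood apart before any comparison of classes. Its luminal progenitor cells carried kappa-casein at the level of the other libraries and the other 5 genes at lower levels. The values of each gene follow by role, first the calcium-sensitive caseins, then kappa-casein and the whey proteins.

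Csn2, the beta-casein gene, stood at 135 CPM in luminal progenitor cells of library 1, 7015 CPM in those of library 2 and 5094 CPM in those of library 3. In hormone-responsive cells of the same libraries it stood at 1.46, 421 and 165 CPM, and in basal cells at 3.93, 508 and 196 CPM. Within each library the luminal progenitor cells were highest, but library 1 luminal progenitor cells lay below the hormone-responsive and basal cells of libraries 2 and 3. The fitted log2 fold change of luminal progenitor over basal cells was 4.50 ± 0.30 (SE, n = 3 libraries; edgeR's quasi-likelihood test, Benjamini-Hochberg adjusted p = 3.87e-06). Luminal progenitor over hormone-responsive cells gave 4.86 ± 0.31 (edgeR, adjusted p = 5.05e-06). The SE here and below is that of the fit and not that of the 3 library ratios, which can spread more widely. For luminal progenitor over hormone-responsive cells the log2 ratios were 6.26, 4.10 and 5.11 in libraries 1, 2 and 3 (SD 1.08). The hormone-responsive value of library 1 rested on 2 UMIs. The fold was positive in each of the 3 libraries for both comparisons.

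Csn1s1, the alpha-S1-casein gene, followed the same order. It reached 230, 5380 and 5116 CPM in luminal progenitor cells of libraries 1, 2 and 3, 10.2, 282 and 154 CPM in hormone-responsive cells, and 4.77, 382 and 203 CPM in basal cells. Its log2 fold change was 4.55 ± 0.29 for luminal progenitor over basal cells (edgeR, adjusted p = 3.35e-06) and 4.81 ± 0.31 for luminal progenitor over hormone-responsive cells (edgeR, adjusted p = 4.94e-06). Csn1s2a, an alpha-S2-casein gene, measured 43.3, 4359 and 2890 CPM in luminal progenitor cells, 1.46, 285 and 88.5 CPM in hormone-responsive cells, and 1.68, 280 and 84.9 CPM in basal cells. In library 1 the hormone-responsive value rested on 2 UMIs and the basal value on 6. Its log2 fold changes were 4.61 ± 0.27 over basal cells (edgeR, adjusted p = 2.18e-06) and 4.64 ± 0.28 over hormone-responsive cells (edgeR, adjusted p = 3.78e-06).

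Csn3 was the most even of the 6 between libraries. It measured 5413, 3088 and 4653 CPM in luminal progenitor cells, 358, 141 and 194 CPM in hormone-responsive cells, and 177, 186 and 253 CPM in basal cells. No hormone-responsive or basal value of any library reached a luminal progenitor value. The share of all genes tested with such separation was not counted, so here and for Lalba below it is a description only. The log2 fold change was 4.36 ± 0.26 over basal cells (edgeR, adjusted p = 2.27e-06) and 4.39 ± 0.26 over hormone-responsive cells (edgeR, adjusted p = 3.51e-06).

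Lalba stood at 492, 2033 and 1913 CPM in luminal progenitor cells, 32.8, 83.0 and 64.8 CPM in hormone-responsive cells, and 16.8, 136 and 80.9 CPM in basal cells, again without overlap between luminal progenitor cells and the other classes. Its log2 fold changes were 4.39 ± 0.27 over basal cells (edgeR, adjusted p = 2.84e-06) and 4.63 ± 0.28 over hormone-responsive cells (edgeR, adjusted p = 4.01e-06). Wap was the rarest member. In luminal progenitor cells it gave 1.23 CPM (exact Poisson 95% interval 0.494 to 2.53, from 7 UMIs), 31.5 CPM (25.3 to 38.7) and 24.3 CPM (20.5 to 28.6). In hormone-responsive cells it had 0, 6 and 1 UMIs, and in basal cells of library 1 it also had 0 UMIs, against 2.49 CPM and 1.42 CPM in basal cells of libraries 2 and 3. A count of 0 allowed up to 2.18 CPM in the hormone-responsive cells and 0.842 CPM in the basal cells of library 1, so no ratio is given for Wap there. The fitted log2 fold changes of Wap were 3.91 ± 0.33 over basal cells (edgeR, adjusted p = 1.68e-05) and 5.10 ± 0.43 over hormone-responsive cells (edgeR, adjusted p = 2.40e-05). Because libraries stood at 0 UMIs, these values depend on how the fit handles such counts. The Poisson intervals and the 3-count floor cover counting error only.

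**Figure D1:**
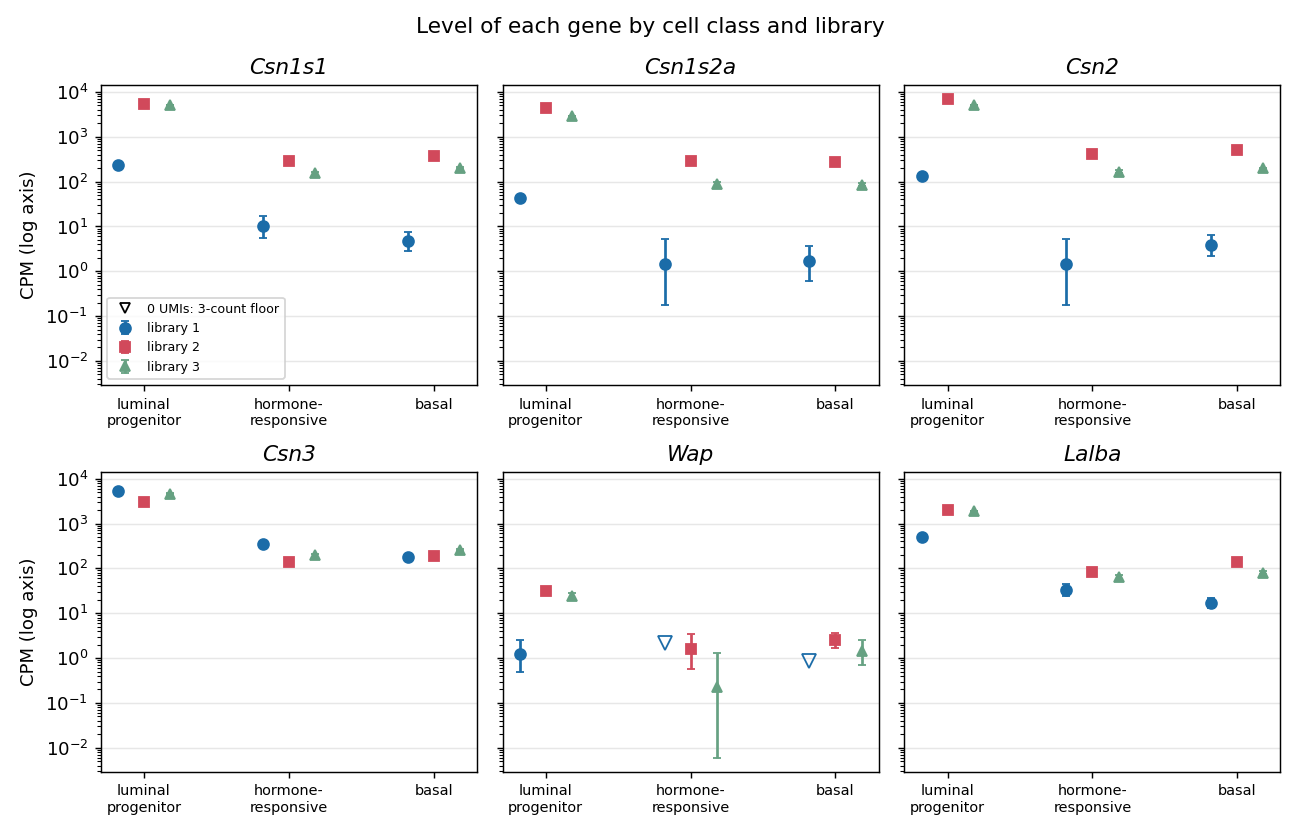
Level of each of the 6 genes in CPM (log axis) by cell class, with 1 point per library and exact Poisson 95% intervals; open triangles give the 3-count floor where a library had 0 UMIs. Luminal progenitor cells are the highest class for each gene within each library except for Wap in library 1, where 7 UMIs lie near the floor of the other classes, and the library 1 points of Csn1s1, Csn1s2a and Csn2 lie far below those of libraries 2 and 3 in all classes.

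Against basal cells 6 of 6 genes were called higher in luminal progenitor cells, where a call needed a log2 fold change of 1 or more in size and an adjusted p below 0.05. Among all 12073 genes tested 12.8% were called higher in this comparison, and 29.5% either way. Against hormone-responsive cells 6 of 6 were again called higher, beside 13.2% of all genes tested called higher and 10.3% called lower. DESeq2 called the same 6 in both comparisons. Without the library as a block, Csn1s2a and Csn2 no longer passed the threshold in either comparison, with log2 fold changes of 4.35 and 4.15 over basal cells (edgeR, adjusted p = 0.0738 and 0.0796). Doublet removal and the class rule moved the size: the luminal progenitor over basal value of Csn3 was 3.45 without doublet removal and 4.80 when classes needed 5 UMIs and 5 times the other sums.

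No member was called between hormone-responsive and basal cells. By edgeR's quasi-likelihood test 0 of 6 genes were called for hormone-responsive over basal cells, 0 of 6 had an unadjusted p below 0.05, and DESeq2 called 0, while 35.0% of all genes tested were called in either direction and 20.2% were called lower. The log2 fold changes of hormone-responsive over basal cells were -0.36 ± 0.28 for Csn2, -0.26 ± 0.28 for Csn1s1, -0.24 ± 0.26 for Lalba, -0.04 ± 0.26 for Csn1s2a, -0.03 ± 0.23 for Csn3 and -1.19 ± 0.56 for Wap, with adjusted p between 0.0962 and 0.915 (edgeR). Library 1 ran opposite to libraries 2 and 3 for Csn1s1, Csn3 and Lalba, being higher in hormone-responsive cells there. For Csn3 the sign turned to 0.18 without library 2 and to 0.11 without library 3, and for Lalba to 0.12 without library 2. Without library 1 the values were -0.51 for Csn3, -0.65 for Lalba and -0.53 for Csn1s1 (edgeR, adjusted p = 0.000415, 0.00349 and 0.0254), each short of the log2 fold change of 1 that a call needed. The adjusted p of Wap was 0.0166 without doublet removal, with a log2 fold change of -1.34.

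**Figure D2:**
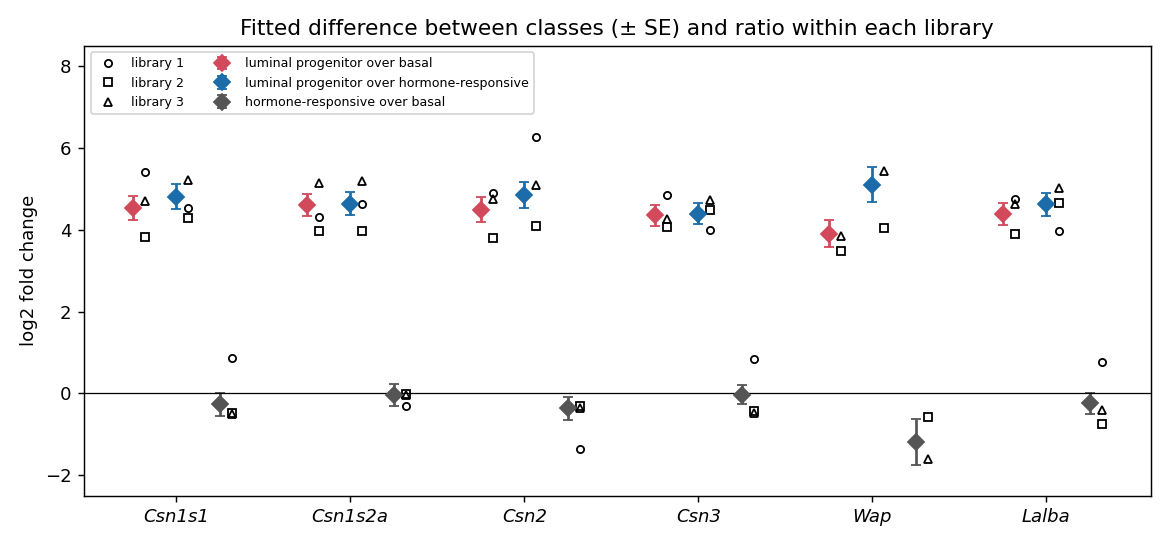
Fitted log2 fold change of each gene for the 3 comparisons of classes (filled diamonds, bars ± SE) with the log2 ratio within each library beside it (open symbols, prior count of 2; pairs in which a class had 0 UMIs are left out). The diamonds of luminal progenitor over basal and over hormone-responsive cells lie between 3.91 and 5.10, and those of hormone-responsive over basal cells lie between -1.19 and -0.03.

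The difference between libraries was large in the luminal progenitor cells themselves. Relative to library 1, luminal progenitor cells of libraries 2 and 3 held 101 and 66.7 times as much Csn1s2a, 51.9 and 37.7 times as much Csn2, and 23.4 and 22.2 times as much Csn1s1. For Lalba the ratios were 4.13 and 3.89, and for Csn3 they were 0.571 and 0.860. The ratio of library 2 to library 3 lay between 0.664 for Csn3 and 1.51 for Csn1s2a. Libraries are the replicates here, so these ratios carry no test, and the labels name no difference between the libraries.

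The mix of the 6 genes showed the same split. In luminal progenitor cells of library 1, Csn3 supplied 85.7% of the UMIs of the 6 genes, Lalba 7.79%, Csn1s1 3.64% and Csn2 2.14%. In those of library 2, Csn2 supplied 32.0%, Csn1s1 24.6%, Csn1s2a 19.9%, Csn3 14.1% and Lalba 9.28%. Library 3 lay close to library 2, with Csn1s1 at 26.0%, Csn2 at 25.9%, Csn3 at 23.6%, Csn1s2a at 14.7% and Lalba at 9.71%. The other classes of a library carried a mix near that of its luminal progenitor cells, with departures. In library 1 Csn2 made up 0.361% in hormone-responsive cells, from 2 UMIs, against 2.14% in luminal progenitor cells. In library 3 Csn1s2a made up 10.3% in basal cells against 14.7% in luminal progenitor cells. Csn3 made up 88.6% in hormone-responsive and 86.7% in basal cells of library 1, 11.6% and 12.4% in those of library 2, and 29.1% and 30.9% in those of library 3.

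**Figure D3:**
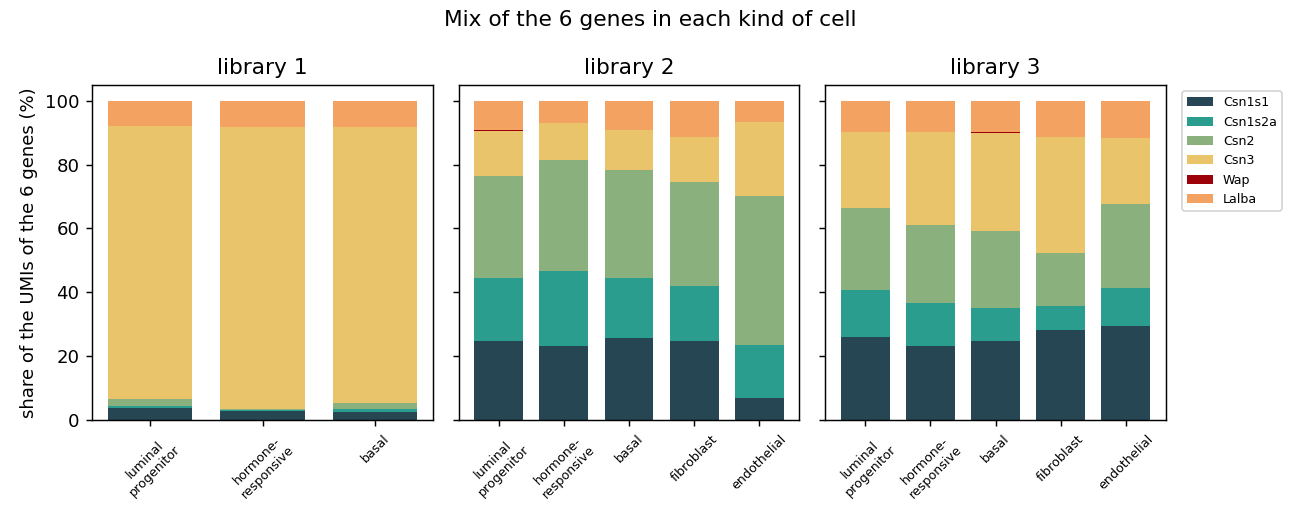
Share of the UMIs of the 6 genes that each gene supplied (stacked bars, %), by kind of cell and library; fibroblast and endothelial cells, classed by their own markers, are drawn for libraries 2 and 3, since library 1 held only 4 and 20 of them. Csn3 fills 85.7% of the luminal progenitor bar of library 1 against 14.1% and 23.6% in libraries 2 and 3, and the hormone-responsive and basal bars of library 1 are filled by it to 88.6% and 86.7%.

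Transcripts released from broken cells can enter any droplet, and the low values outside luminal progenitor cells were set beside fibroblast cells, which should lack milk proteins. After each cell was thinned to 1000 UMIs, Csn1s1 was detected in 71.4% of luminal progenitor cells of library 2, in 14.7% of hormone-responsive cells, in 14.6% of basal cells and in 12.7% of 63 fibroblast cells (95% exact binomial interval of the fibroblast cells 5.65 to 23.5). Unthinned, the shares were 81.5%, 37.9%, 27.7% and 20.3% at median depths of 3720.5, 3799, 2170 and 2105 UMIs. In library 3 the thinned shares were 66.8%, 12.3%, 12.1% and 19.4% in the same order. For Csn1s1 the shares in hormone-responsive and basal cells lay within the wide interval of the fibroblast cells in both libraries, and no expression is read from them. The 7 cells of library 3 with pericyte markers held the 6 genes at 16761 CPM in all, against 19690 CPM in its luminal progenitor cells, with more than 1% of UMIs from them in 3 of the 7. The 6 and 5 such cells of libraries 1 and 2 stood at 3062 and 808 CPM, and what these cells are was not tested. In library 1 the thinned share was 7.54% in luminal progenitor cells, 1.02% in hormone-responsive cells and 0.629% in basal cells, with 4 fibroblast cells.

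Hormone-responsive and basal cells also held a small number of cells rich in these transcripts. Cells with more than 1% of their UMIs from the 6 genes numbered 307, 363 and 669 among luminal progenitor cells (21.1%, 49.7% and 45.2%), 3, 11 and 4 among hormone-responsive cells, and 0, 62 and 22 among basal cells. The 62 basal cells of library 2 supplied 59.9% of all member UMIs of their class, and the 22 of library 3 supplied 34.8%. Those 62 cells held the luminal progenitor markers Cd14, Ehf and Rspo1 at a summed 1149 CPM, against 48.8 CPM in the other basal cells of library 2. Their Krt5 and Krt14 came to 543 CPM against 3113 CPM in the other basal cells, and Tagln and Myl9 to 150 CPM against 2816 CPM. Their median depth was 4853.5 UMIs, against 2162 in the other basal cells. In library 3 the 22 cells held the 3 luminal progenitor markers at 835 CPM against 37.7 CPM, and Krt5 and Krt14 at 727 CPM against 3684 CPM. The part of these cells in the comparisons above was not tested by a refit. Hormone-responsive and basal cells with at least 1% were then left out, a setting chosen after seeing the data. The summed level of the 6 genes was then set against that of all luminal progenitor cells, none left out. It was 4.37%, 2.70% and 2.53% in hormone-responsive cells of libraries 1, 2 and 3, and 3.24%, 2.81% and 2.75% in basal cells. Cells were dropped by their level of these same genes, so a lower level follows from the choice. Only the basal cells of library 1 lost 0 cells. No conclusion on expression is drawn from these shares. The basal genes Tagln, Myl9, Mylk, Cnn1 and Tpm2 in luminal progenitor cells stood at 0.639% to 3.42% of their CPM in basal cells over the 3 libraries. No cells were left out for these basal genes, so the 2 sets of shares are not compared.

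**Figure D4:**
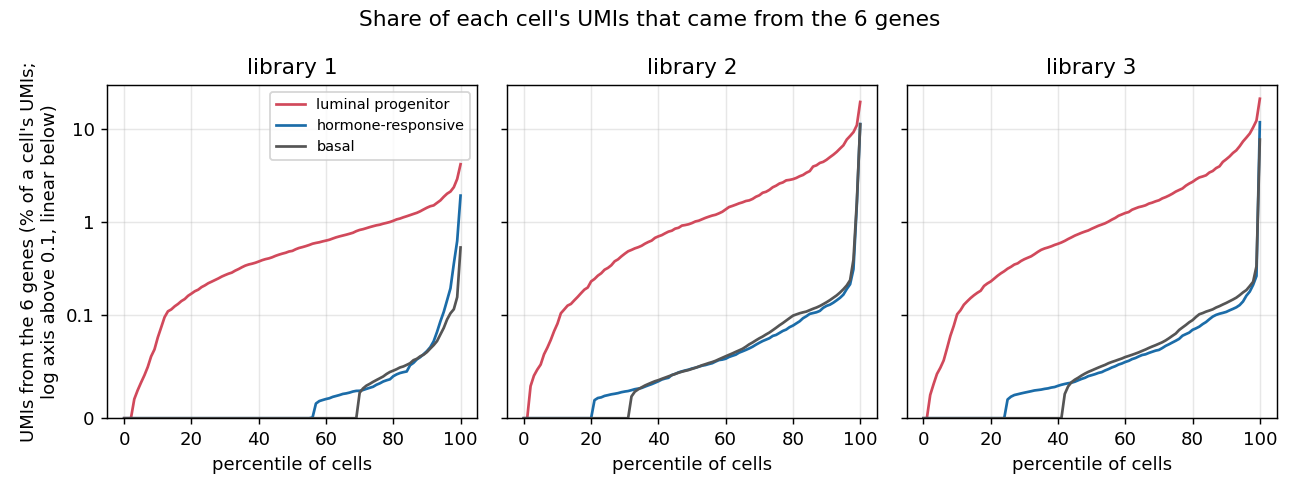
Share of each cell's UMIs that came from the 6 genes (%, log axis above 0.1 and linear below) against the percentile of cells in the class, for the 3 classes of each library. The luminal progenitor median is 0.490%, 0.978% and 0.849% in libraries 1, 2 and 3, while the hormone-responsive and basal curves stay at or under 0.137% at the 90th percentile and climb only at the far right.

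The genes differed in how they were spread over luminal progenitor cells. Csn3 was detected in 96.8%, 84.5% and 92.7% of unthinned luminal progenitor cells of libraries 1, 2 and 3, with medians of 16, 6 and 13 UMIs per cell. The highest 10% of cells held 31.4%, 41.5% and 33.4% of its UMIs, and its variance over mean was 19.0, 21.2 and 20.1. Csn1s2a was detected in 4.61%, 54.5% and 42.5% of cells, and its highest 10% of cells held 100%, 76.8% and 86.7% of its UMIs. The variance over mean of Csn1s2a was 15.1, 146 and 126, and single cells reached 546 UMIs in library 2 and 363 in library 3. In library 1 the share held by the highest 10% of cells is fixed at 100% for Csn1s2a by its low detection, and its variance over mean was below that of Csn3 there. After thinning to 1000 UMIs, Csn3 was detected in 88.4%, 66.7% and 83.1% of luminal progenitor cells and 16.6%, 9.51% and 15.2% of hormone-responsive cells of libraries 1, 2 and 3. Csn1s2a was then detected in 2.08%, 36.6% and 28.1% of luminal progenitor cells and 0.255%, 11.1% and 4.34% of hormone-responsive cells. In libraries 2 and 3 the UMIs of Csn1s2a were held by fewer luminal progenitor cells than those of Csn3.

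Csn2 was detected in 5.23%, 73.3% and 60.9% of luminal progenitor cells, with maxima of 99, 440 and 418 UMIs, and its highest 10% of cells held 100%, 56.0% and 66.7% of its UMIs. Csn1s1 was detected in 12.2%, 81.5% and 79.4% of them, with medians of 0, 10 and 7 UMIs, and its highest 10% of cells held 97.6%, 40.9% and 47.0% of its UMIs. Lalba was detected in 34.0%, 52.2% and 60.5% and Wap in 0.344%, 6.30% and 6.22% of luminal progenitor cells. In library 1 the highest 1% of luminal progenitor cells held 71.5% of the Csn2 UMIs of the class and 5.40% of its Csn3 UMIs. Csn2 was detected in 5.23% of these cells and Csn3 in 96.8%, so low detection sets much of this contrast. It also fixes the 100% that the highest 10% of cells held of Csn2 in library 1. In cells thinned to 1000 UMIs, 64.4% of luminal progenitor cells of library 1 showed exactly 1 of the 6 genes, and 0.346% showed 5. In library 2 the same shares were 17.9% and 14.0%, and in library 3 19.8% and 16.9%. All 6 genes appeared together in 0, 7 and 16 thinned cells.

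Over luminal progenitor cells the calcium-sensitive caseins varied together. Pearson's r of log counts per 10000 UMIs was 0.57, 0.75 and 0.70 between Csn1s1 and Csn2 in libraries 1, 2 and 3, and 0.58, 0.75 and 0.73 between Csn1s2a and Csn2, over 1454, 730 and 1479 cells. Csn3 and Lalba, which lie on different chromosomes, gave 0.39, 0.55 and 0.50. In library 3 Lalba gave as high a value with the other caseins, at 0.56 with Csn2, 0.52 with Csn1s1 and 0.50 with Csn1s2a, and Csn3 gave 0.48 with Csn1s1. Csn3 and Csn2, which share a cluster, gave -0.0013, 0.15 and 0.40. Cells of 1 library share its free RNA, and the summed level of the 6 genes correlated with a cell's depth at 0.02, 0.29 and 0.20, so these coefficients are descriptions. Co-detection gave the same picture in thinned cells. In library 1, 59.6% of the 47 luminal progenitor cells with Csn2 also had Csn1s1, against 5.79% of those without Csn2. In library 2 these shares were 89.5% and 47.8%, and in library 3 89.5% and 47.8%.

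**Figure D5:**
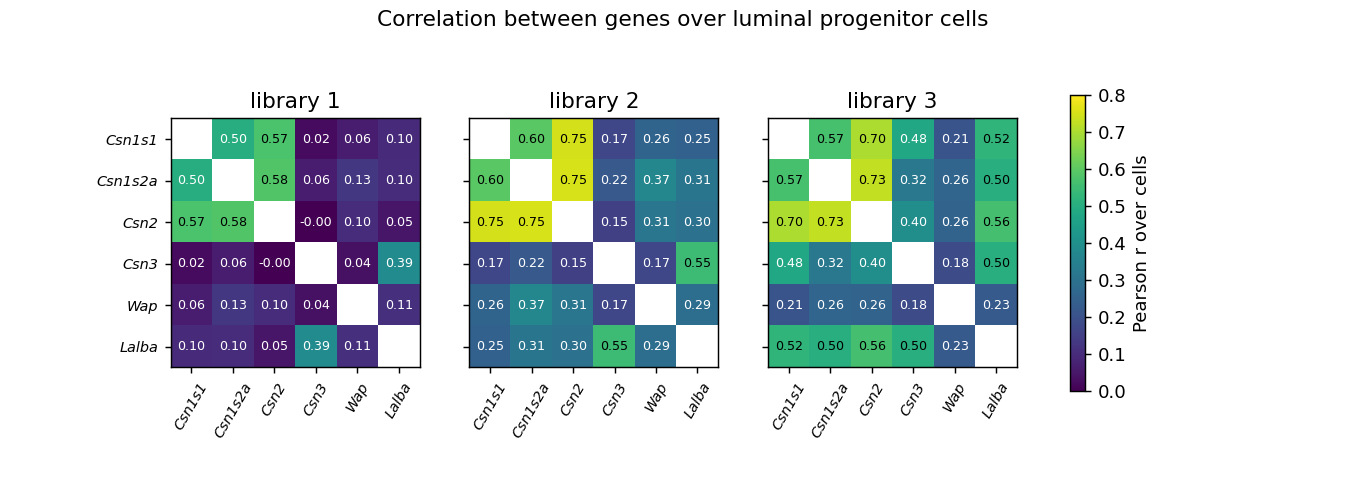
Pearson's r between each pair of the 6 genes over luminal progenitor cells (log counts per 10000 UMIs), in 1 panel per library. Csn1s1, Csn1s2a and Csn2 form a block of 0.50 to 0.75 in each library, Csn3 with Lalba gives 0.39 to 0.55, Lalba with Csn2 reaches 0.56 in library 3, and Csn3 with Csn2 spans -0.0013 to 0.40.

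Beyond the 6 genes, Trf, which encodes the iron carrier transferrin, varied most like their sum over luminal progenitor cells. Ranked by the lowest r of the 3 libraries among 6806 genes, Trf reached 0.42, Lipa (lysosomal acid lipase) 0.35, Spp1 (osteopontin) 0.34, Btn1a1 (butyrophilin, a protein of the milk fat globule) 0.30 and Lao1 (an L-amino acid oxidase of mouse milk) 0.29. Folr1, Cck, Lrg1, Dkkl1 and Clic6 followed at 0.24 to 0.20. Csn3 supplied 85.7% of the summed UMIs in library 1, against 14.1% and 23.6% in libraries 2 and 3. The ranking thus takes in likeness to a different mix of genes in each library. Over the 9 sums of library and class, the 10 genes with the highest Pearson's r to the members' mean were led by Cyp24a1, a vitamin D-degrading enzyme, at 0.995, and held Lsm5, Thrsp, E430025E21Rik, Cyp2f2, Snrpe, Dynll2, Pgpep1, Rnase1 and Wdr48. Cyp24a1 stood at 5.04, 45.1 and 62.3 normalised CPM in luminal progenitor cells of libraries 1, 2 and 3, and Thrsp, a lipogenic protein, at 9.92, 107 and 95.3. Both were low in library 1, like the calcium-sensitive caseins. They were picked for likeness over these same sums, so this follows from the choice and is no separate result. Only 1 of these 10 genes was also among the 10 highest by Spearman's rho, so this ranking depends on the measure.

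Other secreted milk proteins mostly went with the members. Of 14 genes listed 11 were tested, and 9 rose, 1 fell and 1 was not called in luminal progenitor over basal cells, with a median log2 fold change of 4.05 beside 0.07 over all genes tested. Over hormone-responsive cells 10 rose and 1 was not called, with a median of 4.32 beside 0.03. All genes tested gave 12.8% called higher and 16.8% lower over basal cells, and 13.2% and 10.3% over hormone-responsive cells. The list was chosen with earlier results of these data known, so its counts describe the listed genes and give no independent support. Glycam1, counted as risen in both comparisons, rested mainly on library 2. In luminal progenitor cells it stood at 4.35, 236 and 12.0 normalised CPM in libraries 1, 2 and 3. Ltf, the iron-binding lactoferrin, stood at 1554, 852 and 911 normalised CPM in luminal progenitor cells, 80.2, 27.0 and 37.2 in hormone-responsive cells, and 69.7, 27.8 and 33.8 in basal cells of libraries 1, 2 and 3. Its log2 fold change was 4.73 ± 0.16 over basal cells (edgeR, adjusted p = 5.63e-07) and 4.62 ± 0.16 over hormone-responsive cells (edgeR, adjusted p = 3.75e-07). Ltf was highest in library 1, where Csn1s1, Csn1s2a and Csn2 were lowest. Lao1 rose by 4.68 ± 0.30 over basal cells (edgeR, adjusted p = 3.32e-06), and Pigr, the receptor that carries IgA into milk, by 4.56 ± 0.42 over hormone-responsive cells (edgeR, adjusted p = 3.79e-05). Pthlh, the parathyroid hormone-related protein, fell by 4.85 on the log2 scale in luminal progenitor against basal cells (edgeR, adjusted p = 0.000109). Between hormone-responsive and basal cells 0 rose, 2 fell and 9 were not called, where 14.9% of all genes rose and 20.2% fell. These levels are normalised across sums by the TMM method.

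The prolactin and Stat5 pathway held genes that rose and genes that fell. Of its 20 genes, Prlr and Elf5 served the class rule and were not tested. Of the other 18, 3 rose, 5 fell and 10 were not called in luminal progenitor over basal cells, and 5 rose, 5 fell and 8 were not called over hormone-responsive cells. Of all genes tested 12.8% rose and 16.8% fell over basal cells, and 13.2% rose and 10.3% fell over hormone-responsive cells. For hormone-responsive over basal cells 5 rose, 9 fell and 4 were not called, where 14.9% of all genes rose and 20.2% fell. Stat5a reached 80.2, 120 and 98.3 normalised CPM in luminal progenitor cells, 171, 154 and 99.0 in hormone-responsive cells, and 49.7, 52.6 and 40.7 in basal cells. It rose by 1.07 ± 0.19 over basal cells (edgeR, adjusted p = 0.00123), and its difference from hormone-responsive cells was -0.48 ± 0.18 (edgeR, adjusted p = 0.0655). Stat5b rose by 1.44 ± 0.13 over basal cells (edgeR, adjusted p = 2.80e-05). The kinase Jak2 differed from basal cells by -0.00 ± 0.24 (edgeR, adjusted p = 0.998) and fell by 1.22 against hormone-responsive cells (edgeR, adjusted p = 0.00379). Erbb4, a receptor that activates Stat5 in the gland, rose by 3.65 ± 0.50 over basal cells (edgeR, adjusted p = 0.000327).

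Cav1, the caveolin that restrains Jak2 signalling in the mouse gland, stood at 4.70, 8.67 and 8.13 normalised CPM in luminal progenitor cells, 101, 72.8 and 116 in hormone-responsive cells, and 215, 234 and 243 in basal cells. It fell by 5.07 against basal cells (edgeR, adjusted p = 8.37e-07) and by 3.78 against hormone-responsive cells (edgeR, adjusted p = 3.78e-06). Socs3, a suppressor of cytokine signalling, fell by 4.63 against basal cells (edgeR, adjusted p = 5.05e-05), and the phosphatase Ptpn1 fell by 2.52 against hormone-responsive cells (edgeR, adjusted p = 7.69e-06). More values of the list's suppressors were called lower. Over basal cells these were Socs1 at -4.31 and Socs2 at -2.05. Over hormone-responsive cells they were Socs3 at -2.33 and Socs2 at -1.74. Some other values of the list's inhibitors missed a call. Cish, a suppressor of cytokine signalling, stood at -0.54 over basal cells and 0.89 over hormone-responsive cells. Socs1 stood at 0.60 over hormone-responsive cells and Ptpn1 at -0.72 over basal cells. The glucocorticoid receptor Nr3c1 differed from basal cells by -0.12 ± 0.14 (edgeR, adjusted p = 0.485) and rose by 2.89 ± 0.17 over hormone-responsive cells (edgeR, adjusted p = 3.03e-06). Id2, a regulator needed for alveolar growth in mice, rose by 3.26 ± 0.43 over hormone-responsive cells (edgeR, adjusted p = 0.000348). The prolactin receptor gene Prlr, which the class rule used, stood at 65.6 to 88.5 normalised CPM in luminal progenitor cells and at 2729 to 3162 in hormone-responsive cells.

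Among 12 lactose synthesis genes other than Lalba, few were called, as among all genes tested. In luminal progenitor over basal cells 2 of 12 rose and 10 were not called, with a median log2 fold change of 0.34, and over hormone-responsive cells 1 rose, 2 fell and 9 were not called, with a median of -0.00. Of all genes tested 12.8% rose and 16.8% fell over basal cells, and 13.2% rose and 10.3% fell over hormone-responsive cells. For hormone-responsive over basal cells 3 rose, 1 fell and 8 were not called, where 14.9% of all genes rose and 20.2% fell. B4galt1, the catalytic partner of alpha-lactalbumin, stood at 73.1, 111 and 125 normalised CPM in luminal progenitor cells, 57.1, 103 and 112 in hormone-responsive cells, and 35.9, 39.6 and 43.0 in basal cells. It rose by 1.36 ± 0.15 over basal cells (edgeR, adjusted p = 9.04e-05) and differed from hormone-responsive cells by 0.18 ± 0.15 (edgeR, adjusted p = 0.367). The hexokinase Hk2 rose by 1.33 ± 0.33 (edgeR, adjusted p = 0.0105) and the phosphoglucomutase Pgm1 fell by 1.68 (edgeR, adjusted p = 0.0045), both over hormone-responsive cells.

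Genes of casein phosphorylation and secretory calcium were called in both directions. Of 12 tested, 3 rose, 3 fell and 6 were not called in luminal progenitor over basal cells (median 0.12), and 2 rose, 2 fell and 8 were not called over hormone-responsive cells (median -0.31), beside 12.8% higher and 16.8% lower of all genes over basal cells and 13.2% and 10.3% over hormone-responsive cells. For hormone-responsive over basal cells 3 rose, 2 fell and 7 were not called, where 14.9% of all genes rose and 20.2% fell. Fam20c, the Golgi kinase that phosphorylates caseins, stood at 12.2, 52.7 and 25.1 normalised CPM in luminal progenitor cells, 3.40, 6.87 and 5.22 in hormone-responsive cells, and 7.36, 17.6 and 8.48 in basal cells. It rose by 1.36 ± 0.21 over basal cells (edgeR, adjusted p = 0.00061) and by 2.47 ± 0.26 over hormone-responsive cells (edgeR, adjusted p = 8.30e-05). Its partner Fam20a rose by 1.13 ± 0.19 over hormone-responsive cells (edgeR, adjusted p = 0.00138), and the calcium channel Orai1 by 1.90 ± 0.19 over basal cells (edgeR, adjusted p = 4.16e-05). The calcium sensor Stim1 fell by 2.58 against basal cells (edgeR, adjusted p = 6.86e-05) and by 2.11 against hormone-responsive cells (edgeR, adjusted p = 0.000489). The calcium pump Atp2a2 fell by 1.75 against basal cells (edgeR, adjusted p = 1.70e-05), and Sdf4, a calcium-binding protein of the Golgi, fell by 1.01 against hormone-responsive cells (edgeR, adjusted p = 0.00105).

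Most genes that neighbour the members had too few UMIs to test or were not called between classes. The casein cluster spans 266343 bases from Csn1s1 to Csn3 on the RefSeq annotation. Within it Csn1s2b, the second alpha-S2-casein gene and a paralogue of Csn1s2a, had 37 UMIs over all 9 sums, Odam, an ameloblast gene, had 9, and BC037156 had 1. Of the 3 nearest symbols on each side, Sult1d1 and Sult1e1 had 18 and 0 UMIs, and BC051076, Smr3a and Smr2 had 1, 3 and 15. Ythdc1, an RNA-binding protein gene 829549 bases away, was the one tested, at -0.19 ± 0.13 in luminal progenitor over basal cells (edgeR, adjusted p = 0.24). Around Wap, 4 of 6 neighbours were tested, and Nacad and Ramp3 fell in luminal progenitor over basal cells, with log2 fold changes of -4.48 and -5.67 (edgeR, adjusted p = 0.000103 and 0.000593), beside 16.8% of all genes called lower. In luminal progenitor cells of libraries 1, 2 and 3 Nacad stood at 0.351, 0 and 0.337 CPM and Ramp3 at 0.175, 0 and 0 CPM. The sizes of these 2 fold changes therefore depend on how the fit handles counts at or near 0. Around Lalba, Asb8, Kansl2 and Ccnt1 were tested and none reached a log2 fold change of 1, with values of 0.61, 0.38 and -0.01 over basal cells (edgeR, adjusted p = 0.0249, 0.0201 and 0.982).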

How the data were processed

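The deposited files are raw UMI counts per gene symbol and cell barcode, 1 table per library, which the authors made from droplet single-cell reads. Per the submitters' processing notes, Cell Ranger 2.1.0 and mm10 were used. The gene annotation, the cell-calling rule and the treatment of reads that match several genes were not given in the sources used here. Unused sample columns numbered 0. The members and lists were chosen with earlier results of these data known.

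Barcodes with at least 500 genes and under 10% mitochondrial UMIs were kept, and the highest Scrublet scores (scanpy 1.11.5) were removed at 0.8% per 1000 barcodes, which took out 340, 646 and 982 cells. Counts were summed per library and class into 9 sums. Sums were compared with edgeR 4.0.16 in R 4.3.3 (quasi-likelihood test, two-sided, TMM, filterByExpr, library as a block) over 12073 genes, with Benjamini-Hochberg adjustment. The 10 genes of the class rule were left out of the adjustment. A call needed a log2 fold change of 1 or more in size and an adjusted p below 0.05. The fit was run on simulated counts, where it missed part of the genes raised by a log2 fold change of 1. That run is not used as support, and a gene that was not called may still differ. DESeq2 1.42.0 and the other alternatives are in the closing section. Fibroblast and endothelial cells were classed by the same rule on their own markers. To compare shares of cells, each cell was thinned to 1000 UMIs, and shallower cells were left out.

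The library pairs the sums, since its classes come from the same suspension. Deviations from class means correlated at 0.23 to 0.44 across genes within a library and at -0.37 to 0.08 between libraries. Genes named were the 6 members, at most the 2 called genes with the largest fold change in each direction from each list and comparison, plus Stat5a, Jak2, Nr3c1, B4galt1 and Fam20c, the neighbours, and the 10 genes most like the members. Outside this rule Socs1, Socs2 and Cish were named as suppressors on the prolactin list, with further values of Socs3 and Ptpn1. Glycam1 was named for its spread between libraries. A gene that this rule names is not reported here.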

Additional observations from a re-analysis of the deposited data

Results flagged for a closer look

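The cells of no class enter no comparison, and they carried as much of these transcripts as the luminal progenitor cells. The 6 genes together came to 5991, 22881 and 16724 CPM in cells of no class of libraries 1, 2 and 3, against 6315, 21906 and 19690 CPM in luminal progenitor cells. These cells supplied 49.6%, 65.1% and 54.1% of all UMIs of the 6 genes among kept cells of their libraries. Of the 2497, 2005 and 3120 cells, 2341, 1286 and 2583 failed because no marker sum reached 3 UMIs, and in 1492, 971 and 1608 the largest sum was that of the luminal progenitor markers. Csn3 stood at 5095, 2713 and 4097 CPM in them. They were higher than basal cells in each library, where the sum of the 6 genes was 205, 1494 and 820 CPM.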

How the results depend on the processing

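Under all 13 alternatives the counts of called genes stayed within 1.5 times, with 2815 to 4263 for luminal progenitor over basal, 2157 to 3303 for luminal progenitor over hormone-responsive and 3484 to 4954 for hormone-responsive over basal cells. Of the fold changes of the 6 genes under these alternatives, 210 kept their sign and their side of the threshold, 4 no longer passed it, 2 newly passed it and 6 changed sign. Without the replicate block, Csn1s2a and Csn2 missed the threshold over basal cells (log2 fold changes 4.35 and 4.15) and over hormone-responsive cells (4.36 and 4.47; edgeR, adjusted p = 0.0889 and 0.0796), and Csn3 turned to 0.0496 for hormone-responsive over basal cells; it ended no other call of a member. For hormone-responsive over basal cells, leaving out 1 library at a time gave -0.51 to 0.18 for Csn3 and -0.65 to 0.12 for Lalba, and thinning cells to 1000 UMIs gave 0.14 for Csn3 and 0.0183 for Csn1s2a. Wap passed the threshold there without doublet removal (-1.34) and with all barcodes as deposited (-1.48; edgeR, adjusted p = 0.0109). The cause was not tested. Wap gave no value without library 2, without library 3, under the class rule of 5 UMIs or in thinned cells, since it missed the filter on low counts. Of the levels 147 of the values under an alternative stayed within the spread of libraries, taken as their standard deviation, and 9 did not. A mean that leaves out 1 library cannot pass that limit, so those values had to stay within it. Library 1 widens the spread for several genes. Csn1s1 in basal cells counted as within it at 370 CPM without doublet removal, against 197 CPM. The count of 147 is therefore no measure of stable levels. The mean of Csn2 in basal cells, 236 CPM, was 406 CPM without doublet removal, 127 CPM under the class rule of 5 UMIs, 105 CPM without cells rich in members and 100.1 CPM without library 2. Cells rich in members were picked by the 6 genes themselves, so the lower mean without them follows from the choice. Shares of cells with a UMI depended on depth, and 18 of 36 moved past that spread: unthinned against thinned to 1000 UMIs, Wap was detected in 4.29% against 1.09% of luminal progenitor cells and Lalba in 11.5% against 3.61% of hormone-responsive cells. Depth limits Wap, which rested on 7 UMIs in luminal progenitor cells of library 1.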
